A study of Rattus norvegicus with 12 samples.

Results

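The genes described here are transporters of sugars, monocarboxylates, peptides, organic ions, bile acids, nucleosides, choline, vitamins, metals, fatty acids and mitochondrial metabolites. They were chosen by gene symbol alone: every probeset assigned to exactly 1 gene of the solute carrier families Slc2, Slc5, Slc10, Slc11, Slc13 to Slc16, Slc19, Slc22, Slc23, Slc25, Slc27 to Slc29, Slc31, Slc33, Slc35 (letter a), Slc37 and Slc44, or of the Slco family. This rule took 94 of 8260 probesets, of which 7603 had a single gene symbol. The rule uses no expression value, but it was set with earlier results of these data known. Each probeset stands for a different gene.

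Gene expression was measured in L5 dorsal root ganglia (DRG), which hold the cell bodies of sensory neurons, from adult male Sprague Dawley rats. In 6 LID rats (local inflammation of the DRG) zymosan (10 µl at 2 mg/ml), particles of yeast wall that stimulate innate immune cells, mixed into incomplete Freund's adjuvant, was injected under the foramen so that it reached the ganglion. The 6 sham rats had the same surgery with no injection, so the effects of zymosan and of the adjuvant oil cannot be told apart. Ganglia were taken on post-operative day 3, and each Affymetrix exon array held RNA from 1 ganglion of 1 rat. RNA was isolated with either of 2 kits, and the sources used here do not say which sample had which.

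The values are log2 values centred, gene by gene, on the median of the 12 arrays. They show how an array stood relative to the others, not how strongly a gene was expressed. A value of 0 is the middle array, and presence or absence of a gene cannot be read. For the same reason the sensory neuron markers could not be checked for their level. Of 12 measured, 0 passed limma's test between the groups (adjusted p under 0.05; 2 had an unadjusted p under 0.05), and the median difference was 0.00. Array medians over all probesets lay between −0.04 and 0.02, apart from sham 2 at 0.09. Sham 2 also had the highest median over the transporter genes (0.15) and was the highest sham array in 52 of the 94.

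Solute carriers are membrane proteins that let small hydrophilic molecules cross lipid bilayers, either down a gradient or coupled to the movement of sodium or protons. Different families serve the plasma membrane, lysosomes, the endoplasmic reticulum and the inner mitochondrial membrane. In a ganglion they supply neurons and their satellite glia with glucose, lactate, inositol and choline. In blood vessel walls and meninges, organic anion carriers also move prostaglandins, hormones and acidic metabolites across cell layers.

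LID was compared with sham gene by gene with limma, with Benjamini-Hochberg adjustment of the p values across the 8260 probesets. A gene is called when the adjusted p is under 0.05. Of the 94 transporter genes, 17 were called (18.1%), against 19.4% of all probesets. There were 8 genes higher in LID (8.51%, against 7.66% of all probesets) and 9 lower (9.57%, against 11.7%). An unadjusted p under 0.05 was reached by 24 genes (25.5%, against 29.9% of all probesets). These shares lie close to those of the array as a whole. A change of at least 1.5-fold was also present in 3 of the higher genes (3.19%, against 2.14% of all probesets) and in 1 of the lower (1.06%, against 0.847%). The median log2 difference was −0.01 over the transporter genes and −0.02 over all probesets. In 68 of the 94 genes (72.3%, against 68.8% of all probesets) the log2 difference was smaller than 0.15 in size.

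**Figure D1:**
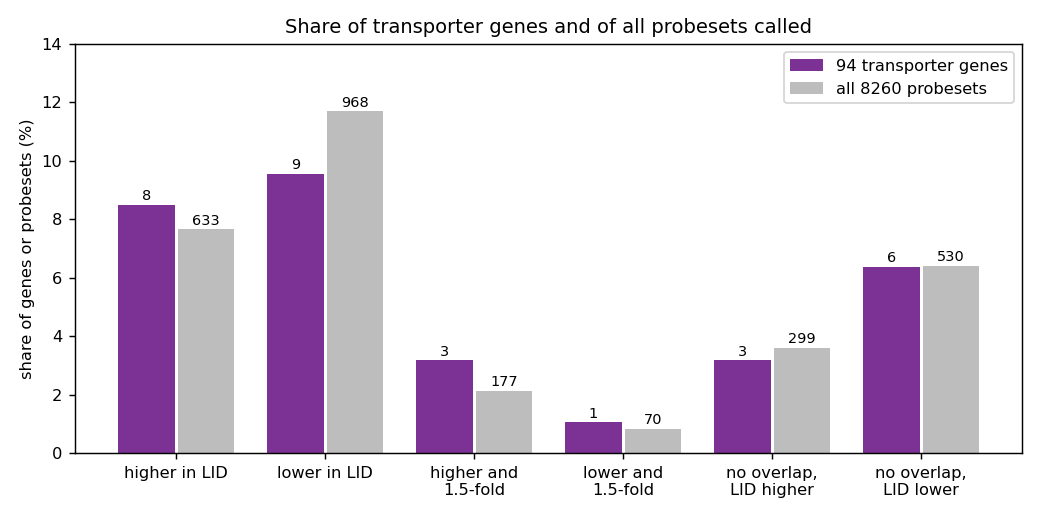
Percentage of the 94 transporter genes (purple) and of all 8260 probesets (grey) that were called higher or lower in LID, that also changed by at least 1.5-fold, or whose 6 LID and 6 sham values did not overlap. Numbers above the bars are counts of genes or probesets. The purple and grey bars stand close together in each category, with 8 genes called higher and 9 lower.

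The genes that passed the test were scattered over the families. Each of the peptide, monocarboxylate, choline and sugar groups held 1 gene that rose and 1 that fell. The 27 organic ion and bile acid carriers held 3 higher and 2 lower. The 16 mitochondrial carriers held 2 lower and 0 higher by limma (4 and 1 at an unadjusted p under 0.05), and the 8 nucleoside and urea carriers held 1 higher. Among 10 sodium-coupled carboxylate and vitamin carriers 1 was lower. None of the 3 fatty acid, 2 metal and 3 nucleotide sugar and acetyl-CoA carriers was called by limma, and 0 of them had an unadjusted p under 0.05. A ganglion is a mixed tissue, so fewer cells of a type and less RNA per cell cannot be told apart in any of these values.

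**Figure D2:**
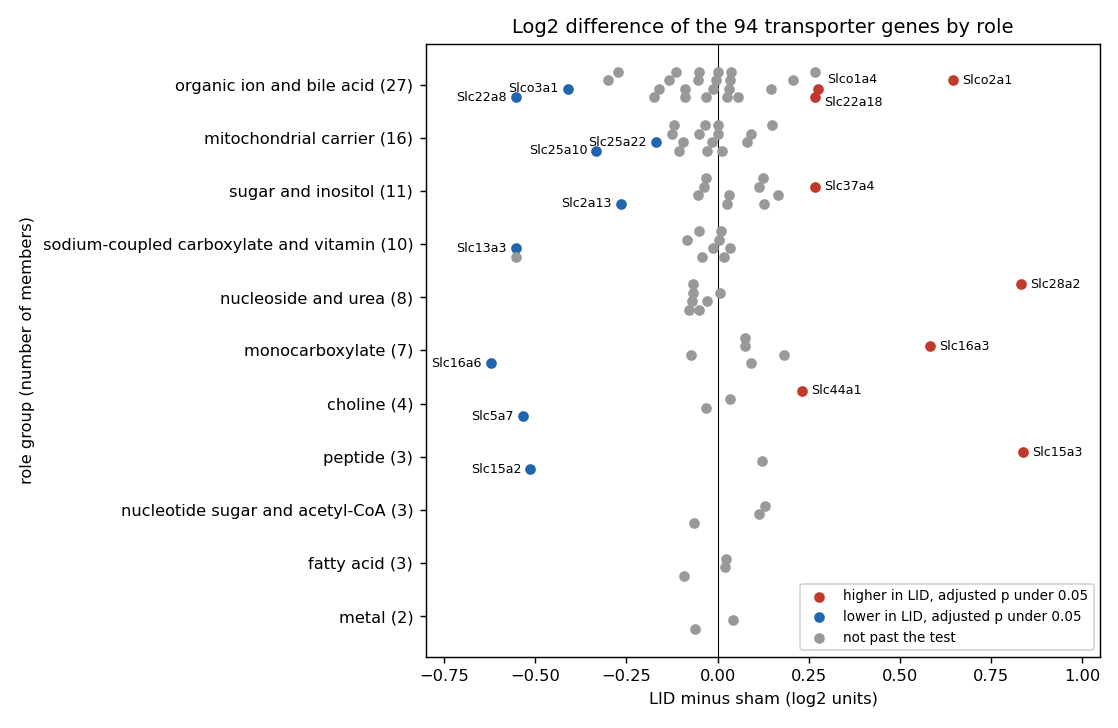
Log2 difference, LID minus sham, of each of the 94 transporter genes (horizontal axis) by role group (vertical axis, with the number of genes). Red points were called higher and blue points lower in LID, and grey points were not called. The called genes reach 0.84 for Slc15a3 and −0.62 for Slc16a6, and most grey points lie within 0.15 of 0.

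Upstream sequence is shown for 3 of the most changed genes, the nucleoside carrier Slc28a2 and the prostaglandin carrier Slco2a1, both higher, and the dicarboxylate carrier Slc13a3, which was lower, so that the letters can be set beside their values. The 250 bases before each annotated start were read from RefSeq (GRCr8, 5′ to 3′ along the gene's own strand), and matches to 5 motifs on both strands are in capitals. The motifs were the core of the myeloid factor PU.1 (GAGGAA), the interferon-stimulated response element (GAAA, any 2 bases, GAAA), the gamma-activated site (TTCNNNGAA), the E-box (CACGTG) and an NF-kB motif (GGG, any 5 bases, CC). Slc28a2 (chr3:129819538-129819787, + strand) and Slco2a1 (chr8:112467489-112467738, + strand) each hold 1 PU.1 core, and Slc13a3 (chr3:174623894-174624143, − strand) holds 2 E-boxes and 6 NF-kB matches, some of which overlap and run together.
Slc28a2: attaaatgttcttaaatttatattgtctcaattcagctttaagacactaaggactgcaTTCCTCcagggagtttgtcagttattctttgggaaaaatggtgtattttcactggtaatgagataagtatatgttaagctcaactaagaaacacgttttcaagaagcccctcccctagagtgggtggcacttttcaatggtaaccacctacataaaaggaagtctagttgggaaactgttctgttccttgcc
Slco2a1: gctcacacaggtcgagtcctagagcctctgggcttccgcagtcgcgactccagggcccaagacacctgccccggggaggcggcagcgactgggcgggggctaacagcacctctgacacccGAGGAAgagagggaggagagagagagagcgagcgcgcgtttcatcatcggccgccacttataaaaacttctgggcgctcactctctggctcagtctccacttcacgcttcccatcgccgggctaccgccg
Slc13a3: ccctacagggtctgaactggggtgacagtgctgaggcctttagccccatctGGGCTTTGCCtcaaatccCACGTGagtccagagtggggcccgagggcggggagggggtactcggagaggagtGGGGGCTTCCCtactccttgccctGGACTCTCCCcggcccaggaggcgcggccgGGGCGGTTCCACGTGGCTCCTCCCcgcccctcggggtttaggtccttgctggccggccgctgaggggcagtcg

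The PU.1 core and the NF-kB motif are common. An entry was available for 84 of the 94 genes and for 15 of the 17 that were called. The PU.1 core occurred in 3 of 7 higher genes, 1 of 8 lower genes and 27.4% of the 84, against 23.2% of 27457 promoters of the same length. The NF-kB motif occurred in 3 of 7 higher genes, 4 of 8 lower genes and 54.8% of the 84, against 43.5% of all promoters. The E-box occurred in 1 higher and 1 lower gene (5.79% of all promoters), the gamma-activated site in 1 higher and 0 lower (7.52%), and the interferon element in 0 of either (3.29%). Slc22a8, another of the most lowered genes, held no match in this window. A match is a run of letters and not a bound site.

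Among the peptide carriers, Slc15a3 and Slc15a2 moved in opposite directions. Slc15a3 carries histidine and small peptides out of the lysosome, mainly in immune cells. It ranged over −0.01, 0.42 and 1.06 (lowest, median and highest array) in LID and over −0.60, −0.44 and 0.01 in sham, on the centred log2 scale. Of the 6 LID arrays 5 lay above every sham array; LID 6 was the lowest of its group and LID 2 the highest. The log2 difference was 0.84 ± 0.16 (SE, n = 6 per group), or 1.79-fold (95% interval 1.41 to 2.27, limma adjusted p = 0.00295). Slc15a2, the proton-coupled carrier that takes di- and tripeptides into glia and epithelium, ranged over −0.50, −0.36 and −0.10 in LID and over 0.10, 0.15 and 0.27 in sham. The groups did not overlap. Its log2 difference was −0.51 ± 0.06, which puts LID at 70.1% of sham (limma adjusted p = 0.000143). Groups without overlap were found in 9 of the transporter genes (9.57%, against 10.0% of all probesets), with LID higher in 3 (against 3.62%) and lower in 6 (against 6.42%). Slc15a4, the other lysosomal member, had a log2 difference of 0.12 and was not called (limma adjusted p = 0.387).

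Of the nucleoside carriers, only Slc28a2 was called. It is the sodium-coupled carrier that concentrates purine nucleosides such as adenosine inside cells, and its upstream sequence is the first of those printed. The LID arrays ranged over 0.11, 0.41 and 0.78 and the sham arrays over −0.58, −0.48 and −0.11. The groups did not overlap, with LID 6 lowest and LID 2 highest in LID. The log2 difference was 0.83 ± 0.11, or 1.78-fold (1.502 to 2.11, limma adjusted p = 0.000354). The equilibrative carriers, which let nucleosides pass in both directions, had log2 differences of −0.07 (Slc29a1), −0.07 (Slc29a2) and 0.01 (Slc29a3, in lysosomes), none called. Slc28a1 and Slc28a3, at −0.07 and −0.08, and the urea carriers Slc14a1 and Slc14a2, at −0.03 and −0.05, were not called either. For Slc29a1 the 95% interval of the difference was −0.21 to 0.08.

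Genes that release, sense or phosphorylate nucleosides were also measured. Of 11, 4 were higher in LID and 0 lower by limma, also at an unadjusted p under 0.05. Entpd1, the ectoenzyme that degrades ATP outside cells, had the largest difference among them (0.80, limma adjusted p = 0.00151).

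The monocarboxylate family held both a higher and a lower gene. Slc16a3 (MCT4) exports lactate from glycolytic cells. It ranged over −0.07, 0.30 and 0.78 in LID and over −0.68, −0.35 and 0.22 in sham, and 4 LID arrays lay above every sham array. The log2 difference was 0.58 ± 0.17, with LID at 149.7% of sham (95% interval of the fold 1.16 to 1.93, limma adjusted p = 0.0295). This call was lost when any of sham 3, 4, 5 or 6 or LID 2, 3 or 4 was left out, with adjusted p between 0.0548 and 0.0672 and the difference between 0.49 and 0.57. Slc16a6 (MCT7), which in zebrafish exports ketone bodies from the liver, was the most lowered of the 94 genes. Its arrays ranged over −0.57, −0.28 and −0.16 in LID and over 0.16, 0.32 and 0.47 in sham, with no overlap. LID stood at 65.0% of sham, a log2 difference of −0.62 ± 0.08 (limma adjusted p = 0.000198). Slc16a1 (MCT1) and Slc16a7 (MCT2), through which glia release and neurons take up lactate, had differences of 0.07 (95% interval −0.03 to 0.18) and −0.07 (−0.18 to 0.03) and were not called.

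Of 18 glycolysis and lactate genes measured outside the families, 4 were higher, 1 was lower and 13 were not called. At an unadjusted p under 0.05, 7 were higher and 2 lower. Over all probesets 7.66% were called higher and 11.7% lower, and 29.9% had an unadjusted p under 0.05. Hk3, a hexokinase of myeloid cells, had the largest increase (0.53, limma adjusted p = 0.0434). Bsg, the chaperone that carries MCT1 and MCT4 to the cell surface, was lower by a small amount (−0.17, adjusted p = 0.0196).

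The glucose carriers of the plasma membrane gave no call. Slc2a1 (GLUT1), the carrier of endothelium and glia, ranged over −0.21, −0.04 and 0.15 in LID and over −0.07, 0.01 and 0.07 in sham. The arrays of both groups overlapped, and the log2 difference was −0.03 (95% interval −0.16 to 0.10). Slc2a3, the neuronal glucose carrier, differed by 0.12 (−0.02 to 0.27) and Slc2a4, the insulin-regulated one, by 0.03 (−0.12 to 0.17). The intervals leave room for changes of up to about 0.27 in the first and smaller ones in the second. The fructose carrier Slc2a5 (0.13), the liver glucose carrier Slc2a2 (−0.04), the intracellular Slc2a8 (0.03) and the sodium-coupled Slc5a2 (0.11) were not called either.

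In the same group, Slc2a13, the proton-coupled inositol carrier of brain, was lower. It ranged over −0.23, −0.17 and −0.05 in LID and over 0.05, 0.09 and 0.23 in sham, without overlap. The log2 difference was −0.27 ± 0.05 and LID stood at 83.2% of sham (limma adjusted p = 0.00143). The sodium-coupled inositol carrier Slc5a3 had a difference of 0.17 (95% interval −0.05 to 0.38) and was not called. Slc37a4, which moves glucose 6-phosphate into the endoplasmic reticulum, was higher by 0.27 ± 0.08, or 1.205-fold (limma adjusted p = 0.0385), although sham 6 at 0.21 was above every LID array. Its call was lost without any of sham 1, 3, 4 or 5 or LID 1, 2, 3 or 5 (adjusted p 0.0655 to 0.0896). Its relative Slc37a1 differed by −0.05. Of 7 polyol and inositol enzymes, 0 were called by limma (2 at an unadjusted p under 0.05).

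Choline is the precursor of acetylcholine and of phosphatidylcholine, and its carriers split. Slc5a7, the high-affinity carrier that loads cholinergic terminals, ranged over −0.60, −0.23 and −0.02 in LID and over 0.02, 0.28 and 0.44 in sham. The groups did not overlap, with LID 2 the lowest array. The log2 difference was −0.53 ± 0.09 and LID stood at 69.1% of sham (limma adjusted p = 0.0016). Slc44a1, the widely expressed choline carrier that supplies membrane synthesis, was higher in every LID array than in any sham array. It ranged over 0.05, 0.10 and 0.13 in LID and over −0.22, −0.15 and −0.05 in sham, a difference of 0.23 ± 0.04 or 1.18-fold (1.11 to 1.25, limma adjusted p = 0.0017). Slc44a3 (0.04) and Slc44a4 (−0.03) were not called. Of 8 other genes of choline and acetylcholine use, 2 were lower and 0 higher (4 and 0 at an unadjusted p under 0.05), led by Bche, which hydrolyses choline esters (−0.45, limma adjusted p = 0.0433).

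**Figure D3:**
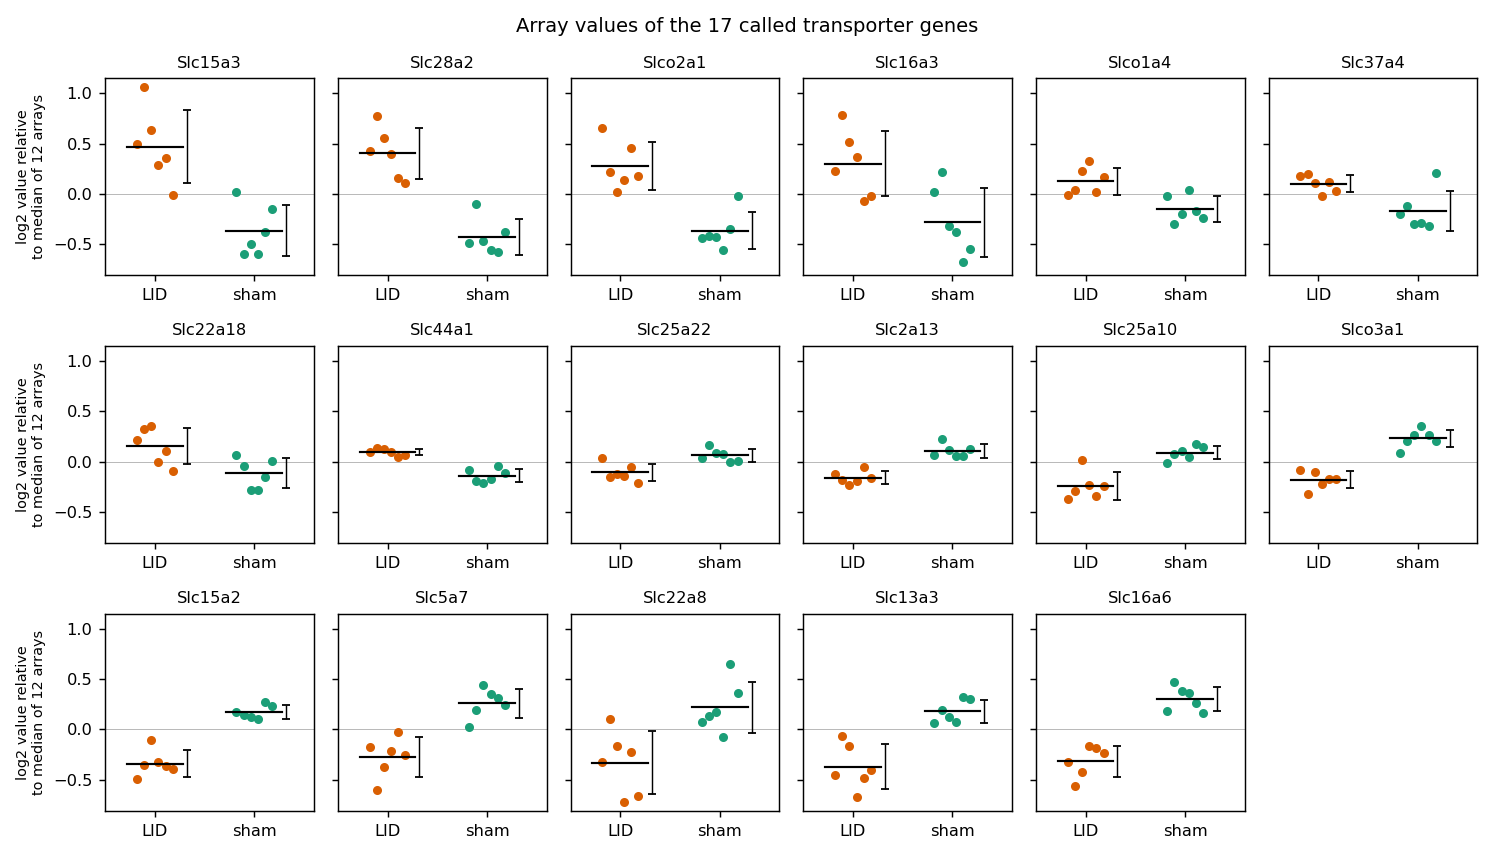
Centred log2 values (vertical axis) of the 17 called transporter genes in each LID array (orange, left) and each sham array (green, right), ordered by log2 difference with the highest first. Horizontal lines are group means and the bars beside them are 1 SD on each side (n = 6 per group). Slc28a2, Slco2a1 and Slc44a1 among the higher genes, and Slc16a6, Slc13a3, Slc5a7, Slc15a2, Slco3a1 and Slc2a13 among the lower, show no overlap.

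The organic ion carriers formed the largest group. Slco2a1, the prostaglandin transporter of endothelium and other cells, takes up prostaglandin E2 for breakdown. Its LID arrays ranged over 0.02, 0.20 and 0.66 and its sham arrays over −0.56, −0.42 and −0.02. The groups did not overlap; LID 1 was the highest array and LID 3 the lowest of LID. The log2 difference was 0.65 ± 0.11, or 1.56-fold (1.32 to 1.85, limma adjusted p = 0.00152). Slco1a4, an organic anion carrier of the blood-brain barrier and liver, was higher by 0.28 ± 0.07 or 1.21-fold (1.08 to 1.35, adjusted p = 0.0183). Slco3a1, an organic anion carrier that also accepts prostaglandins and thyroid hormone, was lower. It ranged over −0.32, −0.17 and −0.09 in LID and over 0.09, 0.23 and 0.35 in sham, with no overlap. Its difference was −0.41 ± 0.05 and LID stood at 75.2% of sham (limma adjusted p = 0.000293).

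Other Slco genes were not called. Slco1c1, the thyroxine carrier, differed by −0.27 (adjusted p = 0.0903, limma) and passed the test without sham 6 (−0.35, adjusted p = 0.0135). Slco2b1 differed by 0.27 (adjusted p = 0.0971) and passed without LID 6 (0.34, adjusted p = 0.0239). Slco4a1 differed by 0.21 (adjusted p = 0.217) and passed without sham 2 (0.29, adjusted p = 0.0222). In each of these 3 genes leaving out 1 array changed the call. In the GRCr8 gene order Slco1c1, Slco1b2 and Slco1a4 lie next to each other on chromosome 4, and their differences were −0.27, −0.05 and 0.28. Slco1a3 and Slco1a6, further along the same cluster, had differences of −0.01 and 0.03. The Slco1a genes are close copies of each other, so signal shared between them cannot be told apart on this array. Of 7 other genes of efflux and multispecific transport, 3 were higher and 1 lower by limma, also at an unadjusted p under 0.05. Over all probesets 7.66% were called higher and 11.7% lower. Abcb1b, an efflux pump of blood vessels and immune cells, had the largest increase (0.45, limma adjusted p = 0.00227), and Slc17a5, the lysosomal sialic acid exporter, the largest decrease (−0.63, adjusted p = 0.00555).

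Slc22a8 (OAT3), which exchanges organic anions for dicarboxylates in kidney, choroid plexus and meninges, was lower in LID. It ranged over −0.72, −0.27 and 0.10 in LID and over −0.07, 0.16 and 0.65 in sham, and 5 LID arrays lay below every sham array. LID 4 and LID 6 were the lowest arrays, and LID 2 stood among the sham values. The difference was −0.55 ± 0.15 and LID stood at 68.2% of sham (limma adjusted p = 0.018). The neighbouring gene Slc22a6 (OAT1), of similar function, differed by −0.18 (95% interval −0.37 to 0.02) and was not called, nor was Slc22a25 on the other side (−0.05). Slc22a18, an organic cation carrier-like gene of an imprinted region, was higher by 0.27 ± 0.09 or 1.204-fold. Its adjusted p of 0.0497 (limma) lay at the threshold and rose to between 0.054 and 0.112 without any of sham 2, 3, 4 or 5 or LID 1, 2, 3 or 5. Slc22a3, the carrier that clears monoamines outside synapses, differed by −0.09 (−0.24 to 0.06) and was not called. Slc10a4, a vesicular relative of the bile acid carriers, differed by −0.30 (95% interval −0.60 to −0.00, adjusted p = 0.164).

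In kidney, the dicarboxylate that Slc22a8 exchanges is taken up by Slc13a3, a sodium-coupled carrier of succinate and other citric acid cycle intermediates. Slc13a3 was also lower: it ranged over −0.68, −0.43 and −0.06 in LID and over 0.06, 0.16 and 0.33 in sham, with no overlap. The difference was −0.55 ± 0.09, LID at 68.2% of sham (limma adjusted p = 0.00148). The sulfate carrier Slc13a4 had an equal mean difference of −0.55 but spread far more, over −1.36, −0.44 and 0.37 in LID and over −0.10, 0.13 and 0.32 in sham. Its 95% interval was −1.08 to −0.03 and it was not called (limma adjusted p = 0.144). Without LID 3, its highest array, the difference was −0.72 and it passed (limma adjusted p = 0.0423). That was the only 1 of 21 alternative fits that called Slc13a4. The citrate carrier Slc13a5 (−0.08), the vitamin C carriers Slc23a1 (0.00) and Slc23a2 (−0.05), the folate carrier Slc19a1 (0.01), the biotin and pantothenate carrier Slc5a6 (−0.04) and the iodide carrier Slc5a5 (0.03) were not called.

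**Figure D4:**
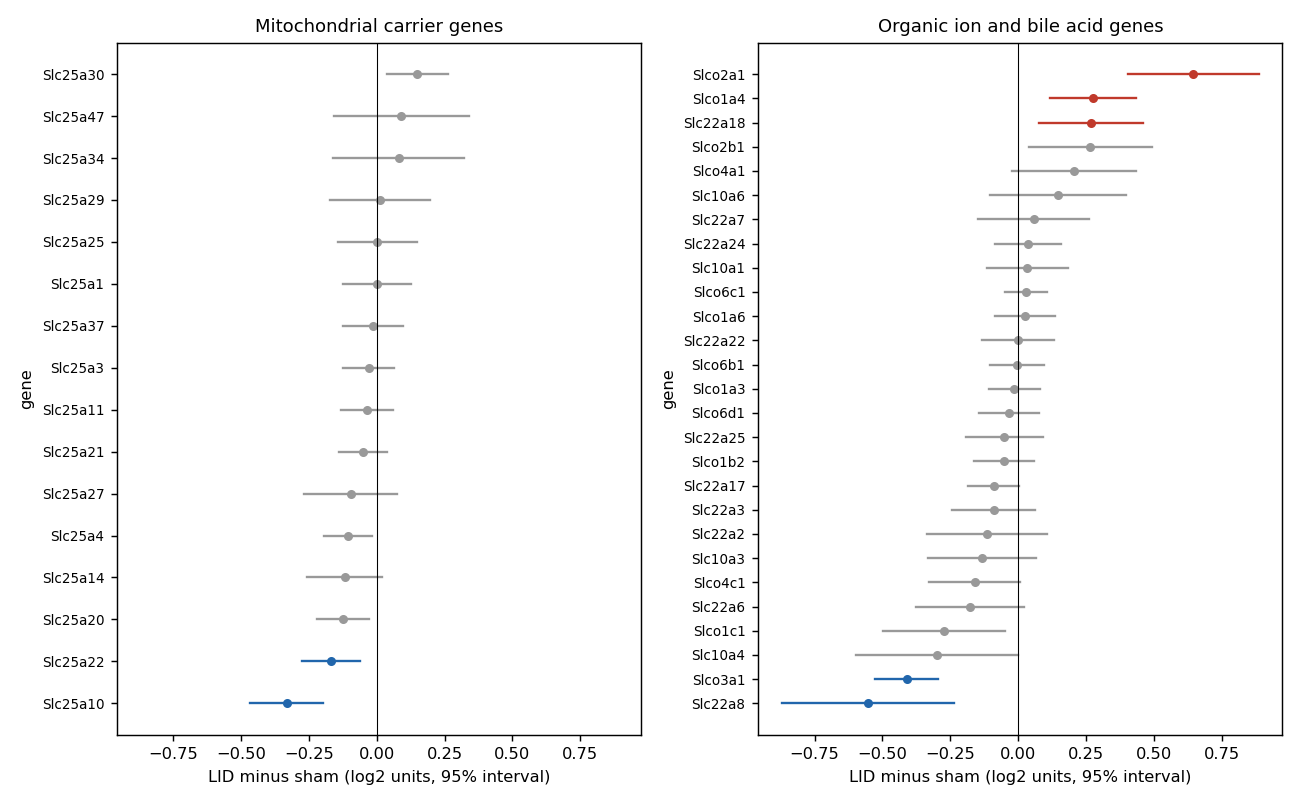
Log2 difference, LID minus sham, with its 95% interval (horizontal axis) for the 16 mitochondrial carrier genes (left) and the 27 organic ion and bile acid carrier genes (right). Red genes were called higher, blue genes lower, and grey genes were not called. The mitochondrial genes lie between −0.33 and 0.15, a narrower span than the organic ion genes, which run between −0.55 and 0.65.

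The 16 mitochondrial carriers held 2 lower genes and 0 higher, beside 11.7% lower and 7.66% higher over all probesets. Their median log2 difference was −0.03, against −0.02 over all probesets. Slc25a10, which exchanges malate or succinate for phosphate across the inner membrane, ranged over −0.37, −0.27 and 0.01 in LID and over −0.01, 0.09 and 0.17 in sham. All LID arrays but LID 3 lay below every sham array. The difference was −0.33 ± 0.06, LID at 79.4% of sham (limma adjusted p = 0.0026). Slc25a22, a mitochondrial glutamate carrier, was lower by 0.17 on the log2 scale, with LID at 89.0% of sham (adjusted p = 0.0279). That call was lost without any of sham 3 or 4 or LID 2, 3, 4 or 6 (adjusted p 0.0567 to 0.0593). Slc25a4, the adenine nucleotide translocator that exports ATP, differed by −0.10 (95% interval −0.19 to −0.02, adjusted p = 0.0969). The carnitine carrier Slc25a20 differed by −0.13 (adjusted p = 0.0711) and passed without sham 5 (−0.15, adjusted p = 0.0322). Slc25a30 differed by 0.15 (adjusted p = 0.0646) and passed without LID 2 (0.17, adjusted p = 0.0433). Of 14 other genes of mitochondrial membrane transport and import, 2 were lower and 0 higher (3 and 0 at an unadjusted p under 0.05), and Mpc1, a subunit of the pyruvate carrier, had the largest difference (−0.18, limma adjusted p = 0.0439).

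The 2 metal, 3 fatty acid and 3 nucleotide sugar and acetyl-CoA carriers gave no call, while 19.4% of all probesets were called. The iron carrier Slc11a2 differed by 0.04 (95% interval −0.05 to 0.13) and the copper carrier Slc31a1 by −0.06 (−0.25 to 0.12). Of 12 other iron and copper genes, 1 was higher, 2 were lower and 9 were not called, with Cp, the ferroxidase ceruloplasmin, at 1.26 (limma adjusted p = 3.76e-05) and the iron exporter Slc40a1 at −0.34 (adjusted p = 0.00303). The fatty acid carrier Slc27a1 differed by −0.09 (−0.19 to 0.00). Of 12 other fatty acid genes only Fabp3, a cytosolic fatty acid binding protein, passed the test (−0.58, limma adjusted p = 0.00174). The nucleotide sugar carrier family members Slc35a3 and Slc35a4 differed by 0.11 and 0.13 and the acetyl-CoA carrier Slc33a1 by −0.06; Slc35a4 passed without sham 6 (0.19, adjusted p = 0.044). Of 8 nucleotide sugar enzymes, Ugdh was higher (0.34, limma adjusted p = 0.00605) and Gmppa lower (−0.25, adjusted p = 0.00775). Of 5 genes of folate, thiamine and ascorbate use, Gsto1 was lower by 0.13 (adjusted p = 0.0423).

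Markers of other cells also differed between the groups. All 12 measured macrophage and monocyte markers were higher in LID (median log2 difference 1.28), and their mean ranged between 0.24 and 0.96 in LID arrays and between −1.03 and −0.13 in sham arrays. Of the T, NK and B cell markers 3 of 8 were higher, of the neutrophil markers 2 of 4, and of the endothelial and pericyte markers 4 of 6, among them the efflux pump Abcb1a, also counted above. Their means ranged over 0.10 to 0.46, 0.15 to 0.82 and −0.03 to 0.21 in LID, and over −0.36 to −0.09, −0.59 to −0.20 and −0.26 to −0.04 in sham. Slc15a3, Slc28a2 and Slc16a3 were highest in LID 2, as was the macrophage mean (0.96), but LID 2 was the highest LID array in 37 of the 94 genes (39.4%). LID 5 and LID 6, where that mean was lowest (0.25 and 0.24), held the lowest LID values of Slc28a2 and Slc16a3, while Slc15a3 was lowest in LID 6 and LID 4. The sham arrays were mixed. Slc28a2 (−0.11) and Slc16a3 (0.22) were highest in sham 2, as were 52 of the 94 genes, although the macrophage mean there was −0.87. Slc15a3 was lowest in sham 2 (−0.60) and highest in sham 1 (0.01), where the macrophage mean was the highest of sham (−0.13). The part of these cells in the changes of the transporter genes was not tested. Of 8 satellite glia markers 1 was higher and 2 lower, of 7 Schwann cell markers 2 were lower, and of 5 fibroblast and perineurium markers 1 was higher.

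In Slc22a8, Slc13a4 and Slc22a6 the lowest LID arrays were LID 4 and LID 6, which was the case in 38 of the 94 genes (40.4%). The same arrays were lowest for genes typical of the leptomeninges, the inner membranes that cover nerve roots. That list was put together after values had been seen, and is given as a description only. Of 12 measured genes 5 were lower, among them the prostaglandin D synthase Ptgds (−1.20) and the connexin gene Gjb6 (−0.98), while Mgp (0.87) and Crabp2 (0.55) were higher. The mean of the list was −0.51 in LID 4 and −0.86 in LID 6, its lowest arrays, and between −0.22 and 0.11 in the other LID arrays, against −0.17 to 0.30 in sham. Slc22a8 was −0.72 and −0.66 in LID 4 and LID 6, and Slc13a4 was −0.94 and −1.36. Slc13a3 was lowest in LID 4 (−0.68), but its LID 6 value (−0.41) lay above those of LID 1 and LID 5. LID 4 and LID 6 also had the lowest LID medians (−0.08 and −0.03) over 953 olfactory, trace amine and vomeronasal receptor probesets, and LID 2 the highest (0.07). How much leptomeningeal tissue each dissected ganglion carried was not tested.

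**Figure D5:**
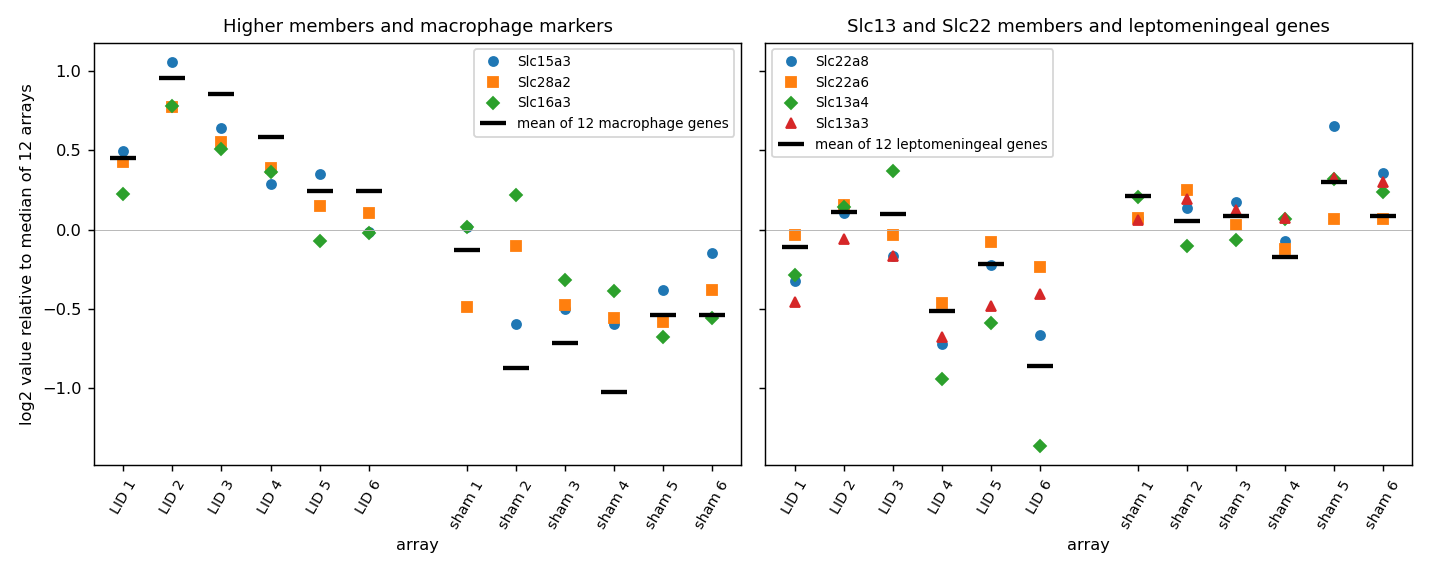
Centred log2 values (vertical axis) in each LID array (left of each panel) and each sham array (right). Left panel: Slc15a3, Slc28a2 and Slc16a3 with the mean of 12 macrophage markers (black bars). Right panel: Slc22a8, Slc22a6, Slc13a4 and Slc13a3 with the mean of 12 leptomeningeal genes. In the left panel the macrophage mean is 0.24 or more in every LID array and −0.13 or less in every sham array. In the right panel LID 4 and LID 6 hold the lowest means, −0.51 and −0.86.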

How the data were processed

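Gene expression was measured in 12 L5 ganglia, 6 LID and 6 sham, on Affymetrix Rat Exon 1.0 ST arrays. The authors summarized core probesets at the gene level with RMA16 in GeneSpring 11.5, quantile normalized them and set each to the median of all samples, and deposited log2 values; the processing notes name the build rn4. The deposited values are centred and hold no absolute level, so detection cannot be read from them and the study's filter on expression was not applied. The study's own list of observed genes was not used. The number of arrays limits the precision: the median 95% interval of a transporter gene reached 0.15 log2 units to each side.

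LID minus sham was fitted to all 8260 probesets with limma 3.58.1 in R 4.3.3 (lmFit and eBayes, two-sided, Benjamini-Hochberg), with no covariate. Summaries used Python 3.11.15, numpy 2.4.6 and pandas 2.3.3. The replicate block was fitted with the replicate number as a term of the limma model. The main limma fit, and no other step, was tested on simulated data. Those were independent normal values with each probeset's own spread, without deviations shared across an array. It recovered 91% of 1.5-fold and 95% of 2-fold changes, with 14 false calls among 200. Probesets were named from the platform annotation; 7584 of 7603 with 1 symbol matched a current RefSeq gene, and no symbol of the 94 genes changed. Coordinates are those of RefSeq's GRCr8 promoters and were not converted.

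The transporter genes, the role groups, the lists and the tests were chosen with earlier results of these data known. Every called gene was named, with array values where the log2 difference was at least 0.3 in size, as were 30 genes picked for their roles, of which 24 were measured. In the pathway lists the leading called gene in each direction was named. Other uncalled genes, and the leptomeningeal list, were chosen after values had been seen. Replicates are ganglia of separate rats. Alternatives covered moderation, normalization, array weights, adjustment, thresholds, a replicate block and arrays left out. Leaving out both number 2 arrays and a receptor gene median as covariate were added after the data were seen. The qPCR, nerve injury, histology and behaviour experiments were not analysed here.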

Additional observations from a re-analysis of the deposited data

Results flagged for a closer look

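In groups of 6 arrays, an array was picked out where its gap to the nearest other array took up more of the group's range than Dixon's 95% critical value allows. Of 66 groups looked at over the named transporter genes, 2 met this, and chance alone picks out about 1 in 20 groups. For Slc25a10, the mitochondrial dicarboxylate carrier, LID 3 stood at 0.0119, above the other LID arrays, which ran between −0.37 and −0.23 (gap 0.644 of the range). For the inositol carrier Slc5a3, sham 6 stood at −0.619, below the other sham arrays at −0.14 to 0.12 (gap 0.648 of the range). Slc25a10 was called with and without LID 3, and Slc5a3 was not called with or without sham 6.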

How the results depend on the processing

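All 17 called genes kept their direction under the 21 alternatives of the fit. The call itself held in all 21 for 4 genes (Slc28a2, Slc16a6, Slco3a1 and Slc15a2) and in every fit that left out 1 array for 13. The main fit gave 8 higher and 9 lower genes (633 and 968 over all probesets). Without moderation of the variances there were 5 and 11 (589 and 938 over all probesets). Holm adjustment gave 1 and 3 (66 and 66 over all probesets). An adjusted p under 0.01 gave 4 and 7 (334 and 498 over all probesets). A 1.5-fold limit gave 3 and 1 (177 and 70 over all probesets). Some settings called more genes. Array weights gave 11 and 12 (926 and 1238 over all probesets). The receptor covariate was the median of 953 olfactory, trace amine and vomeronasal receptor probesets. It gave 12 and 10 (985 and 1258 over all probesets). With 1 array left out the gene counts ranged over 5 to 9 higher and 8 to 10 lower. Those of all probesets ranged over 495 to 700 and 766 to 951. The lowest higher count of 5 came without sham 3, sham 4, sham 5 or LID 3. The labels do not say whether same-numbered arrays were paired. The deviations of same-numbered arrays correlated at between −0.15 and 0.40, and 1 of 6 LID arrays correlated best with its own number. Sham 2 and LID 2 had the widest spread over all probesets (SD 0.268 and 0.257, against 0.208 in sham 4, the next widest). Whether same-numbered arrays shared a batch cannot be read from these correlations. With the replicate block 7 genes were higher and 9 lower (675 and 1005 over all probesets). The genes differed in part: the block ended the calls of Slc22a18, Slc37a4 and Slc25a22 (limma adjusted p = 0.0571, 0.0512 and 0.052) and added Slco4a1 and Slc22a6 (0.0148 and 0.046). Of 77 genes not called, 64 were called in no alternative. Some differences close to 0 changed sign with 1 array left out, where they ranged over −0.0292 to 0.0465 for Slc29a3, −0.0270 to 0.0525 for Slc19a1, −0.0135 to 0.0664 for Slc2a4 and −0.0649 to 0.00727 for Slc2a1. Slc29a3 was at −0.0244 without both number 2 arrays. What caused these shifts was not tested. The values are centred and hold no absolute level. Genes near background therefore cannot be set apart in them from expressed genes that did not change.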

Other observations

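A few related probesets lay outside the rule. Of 4 Slc35 genes with other letters, Slc35b1, the carrier of ATP and ADP across the endoplasmic reticulum membrane, was higher in LID by 0.20 (limma adjusted p = 0.0435), with LID arrays at −0.01, 0.06 and 0.16 (lowest, median and highest) and sham arrays at −0.29, −0.12 and 0.10. Slc35f6 differed by −0.11 (adjusted p = 0.151), and Slc35e4 and Slc35g2 by −0.00 each, none of them called. The 2 probesets that carry several symbols, Slc22a5 with Slc22a21 and Slco1a5 with Slco1a1, differed by 0.01 and −0.01 and were not called.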
